A study of Mus musculus with 12 samples.

Results

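Binding of RelA was compared with binding of Ikaros in wild-type macrophages 8 h after lipopolysaccharide (LPS). The members were the hotspots (regions with an excess of sequence tags) of 1 RelA library and 1 Ikaros library, after removal of every hotspot that overlapped a hotspot of untreated wild-type input DNA by 1 bp or more. This kept 1878 of 1890 RelA hotspots and 13796 of 13843 Ikaros hotspots. Joined wherever they overlapped by 1 bp or more, they formed 14152 regions, of which 1487 carried both factors, 367 RelA only and 12298 Ikaros only. The libraries were 3 of the 12 samples of the series. Another 5 libraries, namely wild-type RelA and wild-type Ikaros at 0 and 3 h and RelA of littermate controls at 8 h, were read at the same regions.

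All cells were primary macrophages grown from bone marrow of C57BL/6J mice. The RelA group and the Ikaros group were both wild type and both received LPS for 8 h, and the input was wild type and untreated. The labels give neither the age of the animals nor how many contributed to a library. RelA was precipitated with a rabbit polyclonal antibody and Ikaros with a goat polyclonal antibody, so antibody and beads differ between the factors as well as the protein. The file names of both 8 h libraries hold 3 h beside 8 h, and those of both 0 h libraries give only 3 h, so times rest on the labels. No transcripts were measured in these files, and the labelled cell type was not checked against marker genes.

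RelA is a DNA-binding subunit of NF-kB. It is held in the cytoplasm by inhibitor proteins of the IkB family, is released when LPS engages its receptor, and binds kappaB sites near inflammatory genes, among them genes for its own inhibitors. Ikaros, encoded by Ikzf1, is a zinc finger protein best known from lymphocyte development. It binds short G-rich sites, associates with chromatin remodelling complexes, and is known both to raise and to lower transcription.

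Strength was read from the z score that the authors deposited for each hotspot, and density is the highest tag density in it, on a scale that is not stated. The lowest z score kept was 10.9 for RelA and 9.75 for Ikaros, and the median was 16.0 for RelA and 14.4 for Ikaros. The z scores of different libraries are not on a common scale, so a hotspot was placed by its percentile within its own list, with 100 as the strongest. Read depth is unknown for every library. Each group held 1 library, so no difference has a replicate check and no p-value is given. Intervals in parentheses are exact 95% Clopper-Pearson intervals for shares and exact binomial intervals for medians. They reflect only how many hotspots were counted, and hotspots near each other are not independent.

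Input took more of the strong end of the Ikaros list than of the RelA list. The 12 RelA hotspots removed had z scores of up to 26.7. The 47 Ikaros hotspots removed had z scores of up to 1312, with a median of 200, and included all 10 of the strongest Ikaros hotspots deposited.

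In the full lists most RelA hotspots at 8 h also carried Ikaros, while most Ikaros hotspots carried no RelA. Of the 1878 RelA hotspots, 1511 overlapped an Ikaros hotspot, 80.5% (78.6 to 82.2). Of the 13796 Ikaros hotspots, 1496 overlapped a RelA hotspot, 10.8% (10.3 to 11.4). The Ikaros list was 7.35 times as long as the RelA list, and both shares rest on these lengths. With Ikaros held to its 1878 strongest hotspots by z score, 27.8% (25.8 to 29.9) of RelA hotspots overlapped Ikaros. Of these Ikaros hotspots, 26.7% (24.7 to 28.7) overlapped RelA. With lists of equal length both shares count nearly the same contacts, so their likeness is not a finding about the factors. Contacts were nearly all between single hotspots, since 1502 of the 1511 RelA hotspots met 1 Ikaros hotspot and the other 9 met 2. From the other side, 1473 Ikaros hotspots met 1 RelA hotspot, 22 met 2 and 1 met 3.

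Few shared hotspots lay close to the limit of 1 bp, but stricter rules moved many more out of the shared class. With a reciprocal overlap of at least 50%, 61.4% of RelA hotspots were shared. With centres within 100 bp of each other 55.5% were. The smallest overlap counted as shared was 4 bp, and only 3 of the 1511 pairs overlapped by under 50 bp. The closest approach of an unshared hotspot to the other factor left a gap of 7 bp. Of the 367 RelA hotspots without Ikaros, 29 lay within 500 bp of an Ikaros hotspot and 181 within 10000 bp, with a median gap of 10.3 kb (7.92 to 14.4). Ikaros hotspots without RelA lay much farther from the other factor, at a median gap of 254 kb (245 to 263) from the nearest RelA hotspot. A shorter list leaves wider gaps, and the RelA list held 1878 hotspots against 13796 for Ikaros. The 2 gaps therefore cannot be compared as a property of the factors.

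Stronger hotspots of either factor were more often shared. Among RelA hotspots the share with Ikaros was 73.1% (68.4 to 77.6) in the weakest quintile of z score, 74.1% (69.4 to 78.5) and 74.7% (70.0 to 79.0) in the next ones, 84.5% (80.5 to 88.0) in the fourth and 95.7% (93.2 to 97.5) in the strongest. The lower 3 quintiles could not be told apart within these intervals. Only 1 of the 50 strongest RelA hotspots and 7 of the 200 strongest lacked Ikaros.

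The share of Ikaros hotspots with RelA was 4.35% (3.62 to 5.18) in the weakest quintile, 5.55% (4.72 to 6.47), 7.32% (6.38 to 8.36) and 13.0% (11.7 to 14.3) in the next ones, and 24.0% (22.4 to 25.7) in the strongest. Strength was thus no guarantee of RelA. Of the 50 strongest Ikaros hotspots 28 carried RelA, of the 200 strongest 81, and of the 1000 strongest 304. Ranking by highest density in place of z score gave 71.5% (66.7 to 76.1) and 94.4% (91.6 to 96.5) in the end quintiles of RelA, and 4.53% (3.78 to 5.37) and 23.7% (22.1 to 25.3) in those of Ikaros.

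**Figure D1:**
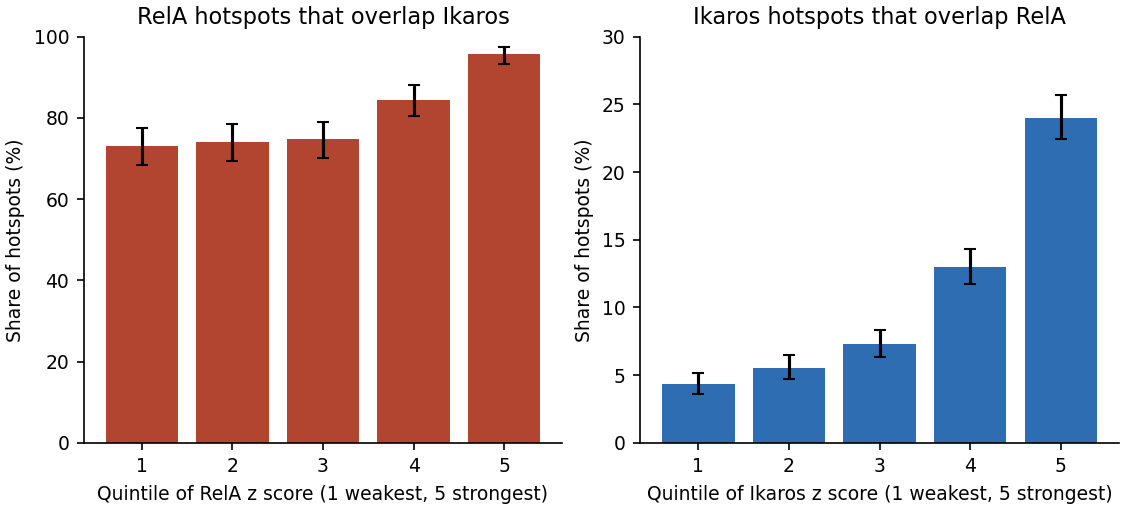
Share of RelA hotspots that overlap an Ikaros hotspot (left) and of Ikaros hotspots that overlap a RelA hotspot (right) at 8 h, in percent, by quintile of z score within each list. Bars are shares and lines exact 95% intervals, and the vertical axes end at 100% on the left and 30% on the right. The share runs from 73.1% to 95.7% for RelA and from 4.35% to 24.0% for Ikaros.

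Shared hotspots were stronger than unshared ones in both lists. The median z score was 16.9 (16.3 to 17.6) for RelA hotspots with Ikaros and 14.2 (13.7 to 14.8) for those without. These medians lie at percentile 54.4 (51.2 to 57.3) and 37.0 (32.4 to 41.4) of the RelA list. For Ikaros the median z score was 20.2 (19.5 to 20.9) with RelA and 14.0 (13.9 to 14.1) without, at percentile 76.3 (74.1 to 77.9) and 47.0 (46.2 to 47.9) of the Ikaros list. Density moved in the same direction, with a median of 26.3 (25.8 to 27.0) for RelA with Ikaros and 22.2 (21.6 to 23.1) for RelA without, and of 31.1 (30.3 to 32.2) for Ikaros with RelA and 22.5 (22.1 to 22.5) for Ikaros without. Density rose with hotspot width, at rho 0.84 in the RelA list and 0.75 in the Ikaros list. A wider hotspot also offers more bp to overlap, and strength was not separated from width here. The difference in median percentile, shared minus unshared, was 17.5 points for RelA and 29.2 for Ikaros. Under reciprocal overlap of at least 50% that of RelA was 35.3, and with lists of equal length that of Ikaros was 11.8.

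Where both factors were listed, the strength of RelA said little about the strength of Ikaros. Each of the 1511 RelA hotspots was paired with the Ikaros hotspot it overlapped by most bp. Over these pairs Spearman's rho between the z scores was 0.19, between highest densities 0.29 and between mean densities 0.32. These are descriptions without a p-value, since the pairs share chromatin and mappability, and some Ikaros hotspots enter more than once. In the strongest quartile of the pairs by RelA, 129 of 378 (34.1%) were also in the strongest quartile by Ikaros and 55 (14.6%) in the weakest. In the weakest quartile by RelA, 75 of 378 (19.8%) were in the strongest quartile by Ikaros and 118 (31.2%) in the weakest. The median Ikaros z score was 18.9, 18.3, 20.9 and 23.7 from the weakest to the strongest quartile by RelA.

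The z score followed width closely, with rho 0.94 in the RelA list and 0.90 in the Ikaros list, so rank by z score is in large part rank by width. Widths themselves had rho 0.25 over the pairs. When the pairs were divided by the width of the Ikaros hotspot, rho between the z scores was 0.03 over 224 pairs up to 500 bp, 0.13 over 1008 pairs over 500 and up to 1000 bp, 0.17 over 239 pairs over 1000 and up to 2000 bp, and -0.14 over 40 pairs wider than that. Division by width also narrows the range of Ikaros z score within a group, and the part of this in rho was not tested.

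**Figure D2:**
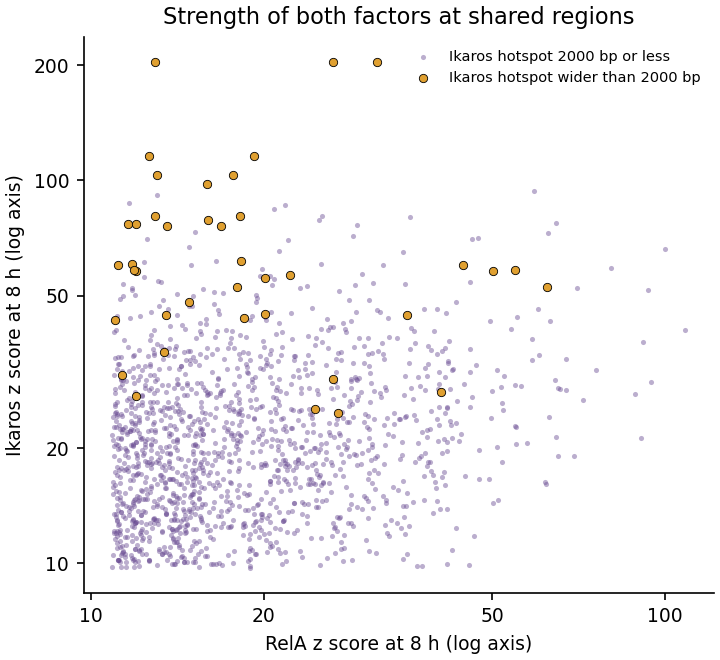
The z score of RelA (horizontal) against that of Ikaros (vertical) at 8 h, both on log axes, for 1511 pairs of overlapping hotspots. Each point is a pair, and outlined points mark the 40 pairs whose Ikaros hotspot is wider than 2000 bp. The points spread over the whole field, with Spearman's rho 0.19.

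By percentile within its own list, Ikaros ranked above RelA in 1002 pairs (66.3%) and RelA above Ikaros in 509 (33.7%). The median percentile of the pairs was 54.4 for RelA and 77.0 for Ikaros. The lists differ in length and in how weak a hotspot they hold, so these are positions within lists and not amounts of bound protein. The percentiles lay within 10 points of each other in 360 pairs. RelA was over 50 points higher in 50 pairs, and Ikaros was over 50 points higher in 289.

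RelA hotspots were mostly narrower than the Ikaros hotspots they overlapped, though not where the Ikaros hotspot was narrow. The median width over the pairs was 572 bp for RelA and 728 bp for Ikaros. The median of RelA minus Ikaros was -162 bp (-177 to -148). It was 120.5 bp over 224 pairs with an Ikaros hotspot up to 500 bp and -152 bp over 1008 pairs over 500 and up to 1000 bp. Over 239 pairs over 1000 and up to 2000 bp it was -517 bp. The width of the Ikaros hotspot is itself part of the difference, so the change of sign between these groups follows largely from the grouping. In the whole lists the median widths were 547 bp for RelA and 565.5 bp for Ikaros. Wider Ikaros hotspots were more often shared, and the part of this in the difference was not tested. Ikaros was the wider partner in 1119 of 1511 pairs (74.1%), RelA in 390 (25.8%), and 2 were equal. In 822 pairs (54.4%) the RelA hotspot lay wholly inside the Ikaros hotspot, and in 209 (13.8%) the reverse held. The labels' protocol gives 20 min of sonication for RelA and 17 min for Ikaros, toward fragments of 200 to 600 bp, and the part of this step in the widths was not tested.

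Shared hotspots were also wider than unshared hotspots of the same factor. RelA hotspots had a median width of 572 bp (558 to 584) with Ikaros and 481 bp (461 to 499) without it. Ikaros hotspots had a median width of 725 bp (709 to 740) with RelA and 548 bp (543 to 552) without it.

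The centres of paired hotspots lay a median of 61.0 bp apart (56.5 to 65.5). The median distance from centre to edge of the wider partner was 378 bp. Where one hotspot lies wholly inside the other, the difference in width limits the distance, so a short distance alone does not show centring. Of the 1511 pairs, 277 (18.3%) had centres within 20 bp, 643 (42.6%) within 50 bp, 1042 (69.0%) within 100 bp and 1333 (88.2%) within 200 bp. RelA lay on the side of the higher coordinate in 736 pairs and of the lower in 769. Distance had rho -0.06 with RelA z score and 0.28 with the width of the Ikaros hotspot.

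**Figure D3:**
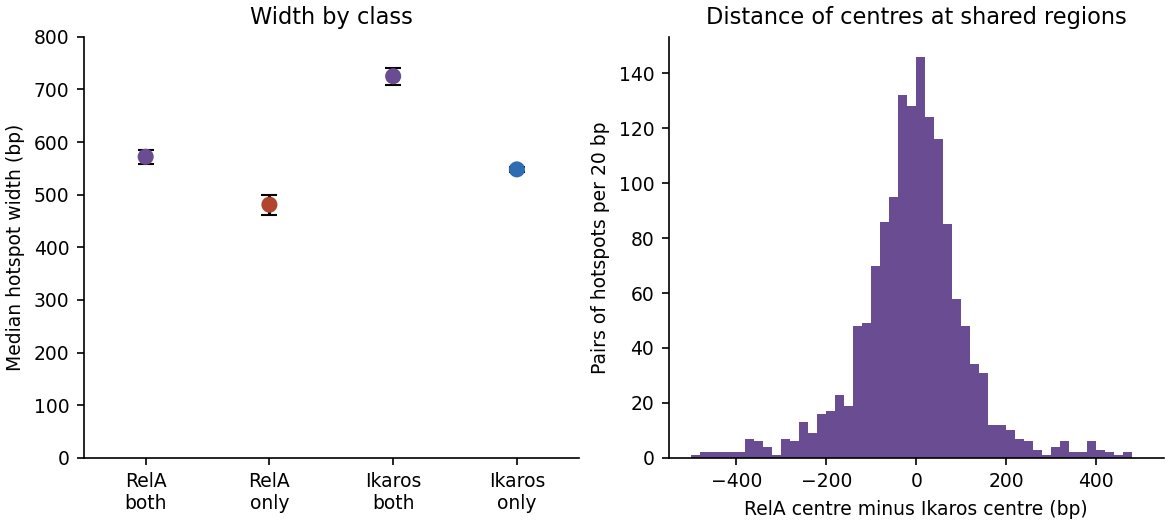
Left, median width in bp of RelA hotspots with Ikaros and without, and of Ikaros hotspots with RelA and without, with exact binomial 95% intervals. Right, number of pairs by the distance of the RelA centre from the Ikaros centre in steps of 20 bp, without the 43 pairs farther apart than 500 bp. Shared hotspots are the wider ones in each list, and the distances gather around 0.

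Broad Ikaros hotspots carried RelA most often. RelA was listed at 227 of 5188 Ikaros hotspots up to 500 bp wide, 4.38% (3.84 to 4.97), and at 1011 of 7900 over 500 and up to 1000 bp, 12.8% (12.1 to 13.6). It was listed at 230 of 668 over 1000 and up to 2000 bp, 34.4% (30.8 to 38.2), and at 28 of 40 wider than 2000 bp, 70.0% (53.5 to 83.4). A wider hotspot offers more bp to overlap, and the part of this in the rise was not tested. Within the broadest Ikaros hotspots the median distance of the RelA centre was 918 bp over 40 pairs. It was 51.0 bp over the 1008 pairs with an Ikaros hotspot over 500 and up to 1000 bp. In 37 of those 40 pairs the RelA hotspot was wholly inside. A broad hotspot leaves room for a larger distance, so this contrast does not show that RelA avoids the centre. Some of the 40 pairs also shared an Ikaros hotspot, since only 28 Ikaros hotspots that wide carried RelA.

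Among the 50 strongest Ikaros hotspots, all 8 that were wider than 2000 bp carried RelA, 100% (63.1 to 100), against 20 of 42 narrower ones, 47.6% (32.0 to 63.6), and these intervals overlap. The strongest Ikaros hotspot of all, chosen here after its value was seen, lay at chr17:35334776-35339923 and was 5147 bp wide, with z 204 and density 401. It held 3 RelA hotspots, and the RelA hotspot with the longest overlap lay at 35338476 to 35339839 with z 31.5. The strongest RelA hotspot, likewise chosen after its value was seen, lay at chr15:6518818-6519807 with z 108. Its Ikaros partner at 6518800 to 6519800 had z 40.7 and rank 368 in its list, and the centres were 12.5 bp apart. Coordinates are those of mm9 as deposited, and regions are given without genes because no annotation of that build was used here.

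The 8 regions that ranked highest in both lists carried strong hotspots of either factor at the same place. Their z scores were 59.0 to 99.8 for RelA and 51.8 to 93.7 for Ikaros, and their centres were 2.50 to 164 bp apart. The first, at chr10:37057705-37058881, had z 99.8 and density 140 for RelA, and z 66.2 and density 82.7 for Ikaros. It was listed in each of the other 5 libraries, with RelA z scores of 12.3 at 0 h and 84.8 at 3 h, Ikaros z scores of 19.1 at 0 h and 43.5 at 3 h, and 66.5 for littermate RelA at 8 h. Both factors were thus listed there in the libraries labelled 0 h, RelA with a z score below the median of 12.7 of its 0 h list.

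The second, at chr11:117807370-117808469, had z 80.4 for RelA and 59.1 for Ikaros. Before LPS it carried Ikaros (z 23.1) and no listed RelA, and at 3 h it had z 93.4 for RelA and 44.7 for Ikaros. The third, at chr11:64468352-64469331, had z 64.6 for RelA and 77.4 for Ikaros, and neither factor was listed there at 0 h. The fourth, at chr17:29532022-29532950, had z 70.1 for RelA and 52.3 for Ikaros.

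The remaining 4 lay at chr17:13202580-13203586 (z 93.5 for RelA and 51.8 for Ikaros), chr2:153023910-153025078 (62.6 and 72.8), chr10:77597530-77598438 (62.4 and 52.8) and chr2:167602622-167603530 (59.0 and 93.7), with RelA first in each pair of z scores. All 8 were listed for RelA at 3 h, for Ikaros at 3 h and for littermate RelA at 8 h. Among RelA hotspots with Ikaros in the strongest quintile of RelA z score these shares were 98.6%, 78.3% and 93.3%. Over the whole RelA list they were 83.9%, 55.5% and 44.0%. At 0 h, 4 of the 8 were listed for RelA and 6 for Ikaros. The shares at 0 h were 9.17% and 11.4% of those strongest-quintile hotspots, and 1.92% and 6.39% of the whole list.

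In some pairs a strong hotspot of one factor overlapped a barely listed hotspot of the other. In the 4 pairs with the largest lead of RelA, RelA had z 36.9 to 45.6 and Ikaros z 9.84 to 9.99, close to the lowest z score of its list. They lay at chr2:121972939-121973721, chr18:50557550-50558362, chr10:50353812-50354509 and chr18:23971789-23972519. All 4 were listed for RelA at 3 h and for littermate RelA at 8 h, 1 was listed for Ikaros at 3 h, and none was listed at 0 h. Among RelA hotspots with Ikaros in the strongest quintile of RelA z score the first 3 shares were 98.6%, 93.3% and 78.3%. At 0 h, 9.17% of those hotspots were listed for RelA and 11.4% for Ikaros. The pairs were chosen for a weak Ikaros hotspot. Among Ikaros hotspots with RelA in the weakest quintile of Ikaros z score, 23.3% had Ikaros at 3 h, near the 1 of 4 seen here.

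In the 4 pairs with the largest lead of Ikaros, RelA had z 11.0 to 11.1 and Ikaros z 40.2 to 60.1. They lay at chr16:97667031-97667282, chr18:68412579-68412848, chr11:83460471-83460722 and chr14:119090256-119090599. Here the RelA hotspots were 251 to 343 bp wide and lay in Ikaros hotspots 797 to 4231 bp wide, 107 to 1696 bp from their centres. On chromosomes 16 and 18 this was the only RelA hotspot in the Ikaros hotspot. The Ikaros hotspots on chromosomes 11 and 14 each held a stronger RelA hotspot as well, at chr11:83462593-83463365 (z 44.5, percentile 96.2) and chr14:119090816-119091561 (z 25.8, percentile 80.5), so there the lead belongs to the pair and not to the whole Ikaros region. All 4 were listed for both factors at 3 h, and none for littermate RelA at 8 h. Among RelA hotspots with Ikaros in the weakest quintile of RelA z score, 73.8% had RelA at 3 h and 56.0% Ikaros at 3 h. Littermate RelA was listed at 14.2% of them. The pairs were also chosen for a strong Ikaros hotspot. Among Ikaros hotspots with RelA in the strongest quintile of Ikaros z score, 94.6% had RelA and 91.6% Ikaros at 3 h, and 55.5% littermate RelA. Over the whole RelA list the shares were 83.9% for RelA at 3 h, 55.5% for Ikaros at 3 h and 44.0% for littermate RelA.

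The 367 RelA hotspots without Ikaros were mostly of middle or low strength. Their z scores ran up to 51.8, against 108 for those with Ikaros. The strongest lay at chr10:39817978-39818847 with z 51.8 and density 78.7, rank 45 in the RelA list. The nearest Ikaros hotspot was 217 bp away, so this region lacked an overlap rather than an Ikaros neighbour. The next lay at chr7:19861940-19862622 (z 46.5, nearest Ikaros hotspot 4405 bp away), at chr16:25016975-25017764 (z 45.1, 5519 bp) and at chr17:86643563-86644288 (z 41.8, 6296 bp).

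The other 4 of the 8 strongest had z 29.8 to 40.8 and lay at chr11:115492046-115492858, chr5:65277214-65277969, chr6:99000412-99001140 and chr1:182152032-182152750. RelA was listed at 3 h at all 8, with z scores between 20.6 and 59.9, and at none at 0 h. Littermate RelA was listed at 6 of the 8 at 8 h. Ikaros was listed at 1 of the 8 at 3 h, that on chromosome 11 (z 10.7), and at none at 0 h. The strongest quintile of RelA z score held 16 RelA hotspots without Ikaros. Of these, 100% had RelA at 3 h, 75.0% littermate RelA and 12.5% Ikaros at 3 h. Over the whole RelA list these shares were 83.9%, 44.0% and 55.5%, and at 0 h 1.92% for RelA and 6.39% for Ikaros.

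The strongest Ikaros hotspots without RelA were dense and at most 1136 bp wide, and Ikaros was already listed there in resting cells. The first 3 lay at chr10:11211605-11212154, chr3:61962937-61963513 and chr8:3754059-3754788, with z 161, 158 and 144 and densities of 250, 251 and 271. They held ranks 2, 3 and 4 of the Ikaros list and were 549, 576 and 729 bp wide. At 0 h the same regions had Ikaros z scores of 135, 130 and 124, and at 3 h of 175, 172 and 176.

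The other 5 lay at chr18:85867165-85867830, chr13:113368245-113368605, chr2:157253622-157254758, chr4:45993500-45994411 and chr7:86610785-86611866, with z 85.9 to 108. All 8 were listed for Ikaros at 0 h and at 3 h, against 5.74% of all Ikaros hotspots at 0 h and 42.2% at 3 h. RelA was listed at 2 of the 8 at 3 h, on chromosome 2 (z 13.0) and chromosome 7 (z 11.3), and littermate RelA at none at 8 h. Among Ikaros hotspots without RelA in the strongest quintile of Ikaros z score, 29.4% had RelA at 3 h and 1.43% littermate RelA. Ikaros was listed at 23.1% of them at 0 h and 86.3% at 3 h. The nearest RelA hotspot at 8 h was 89240 bp away on chromosome 8 and over 100 kb away at the others.

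The classes at 8 h had different pasts at 3 h. Of the 1511 RelA hotspots with Ikaros, 975 had carried both factors at 3 h, 64.5% (62.1 to 66.9). RelA alone had been listed at 354, 23.4% (21.3 to 25.6), Ikaros alone at 41, 2.71% (1.95 to 3.66), and neither at 141, 9.33% (7.91 to 10.9). Where only 1 of the factors had been listed, it was therefore mostly RelA. This was not particular to shared regions, since RelA hotspots without Ikaros had RelA alone at 60.8% and Ikaros alone at 0.545%. Ikaros hotspots without RelA had the reverse order, at 4.67% and 27.8%. List lengths also bear on these shares. The RelA list held 4972 hotspots at 3 h and 1878 at 8 h, and the Ikaros list 7109 and 13796. Shared regions with both factors at 3 h were the strongest, with a median RelA z score of 18.8 at 8 h, against 16.8 where RelA had been alone, 12.4 where Ikaros had been alone and 13.5 where neither had been listed.

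RelA hotspots without Ikaros at 8 h had mostly been without it before. Of the 367, 223 had carried RelA alone at 3 h, 60.8% (55.6 to 65.8), 118 neither factor, 32.2% (27.4 to 37.2), 24 both, 6.54% (4.23 to 9.57), and 2 Ikaros alone. In all, RelA was listed at 3 h at 88.0% (86.2 to 89.6) of RelA hotspots with Ikaros and 67.3% (62.2 to 72.1) of those without, against 83.9% of the whole RelA list. Ikaros was listed at 3 h at 67.2% (64.8 to 69.6) of those with Ikaros and 7.08% (4.68 to 10.2) of those without, against 55.5% of the whole list. That difference of 60.2 percentage points was 26.6 points when sharing at 8 h required a reciprocal overlap of at least 50%.

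Strength differed between these classes, so the shares were also read within quintiles of RelA z score. For RelA at 3 h, hotspots with Ikaros had the higher share in 4 of 5 quintiles. In the weakest quintile the shares were 73.8% (68.2 to 78.9) with Ikaros and 52.5% (42.3 to 62.5) without. In the strongest they were 98.6% (96.8 to 99.5) with Ikaros and 100% (79.4 to 100) of the 16 without. For Ikaros at 3 h, hotspots with Ikaros at 8 h were higher in 5 of 5 quintiles, by 52.0 to 65.8 percentage points.

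Most Ikaros hotspots without RelA at 8 h overlapped no listed hotspot of either factor at 3 h, when the Ikaros list was also shorter, at 7109 hotspots, than the 13796 at 8 h. Of the 12300, 6904 had carried neither, 56.1% (55.2 to 57.0), 3422 Ikaros alone, 27.8% (27.0 to 28.6), 1399 both, 11.4% (10.8 to 11.9), and 575 RelA alone, 4.67% (4.31 to 5.06). RelA had thus been listed 3 h after LPS at 1974 of the places where only Ikaros was listed at 8 h, 16.0% (15.4 to 16.7). Among the 1496 Ikaros hotspots with RelA at 8 h that share was 87.9% (86.1 to 89.5), and over the whole Ikaros list 23.8%. The RelA list was 4972 hotspots long at 3 h and 1878 at 8 h, with a lowest z score of 8.88 at 3 h and 10.9 at 8 h, so a region that left the list may have passed below its threshold.

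Within quintiles of Ikaros z score, hotspots with RelA at 8 h had RelA at 3 h more often in 5 of 5, by 65.0 to 69.1 percentage points. They also had Ikaros at 3 h more often in 5 of 5, by 4.23 to 16.8 points. In the strongest quintile 91.6% (89.2 to 93.6) of Ikaros hotspots with RelA and 86.3% (84.7 to 87.7) of those without had Ikaros at 3 h.

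**Figure D4:**
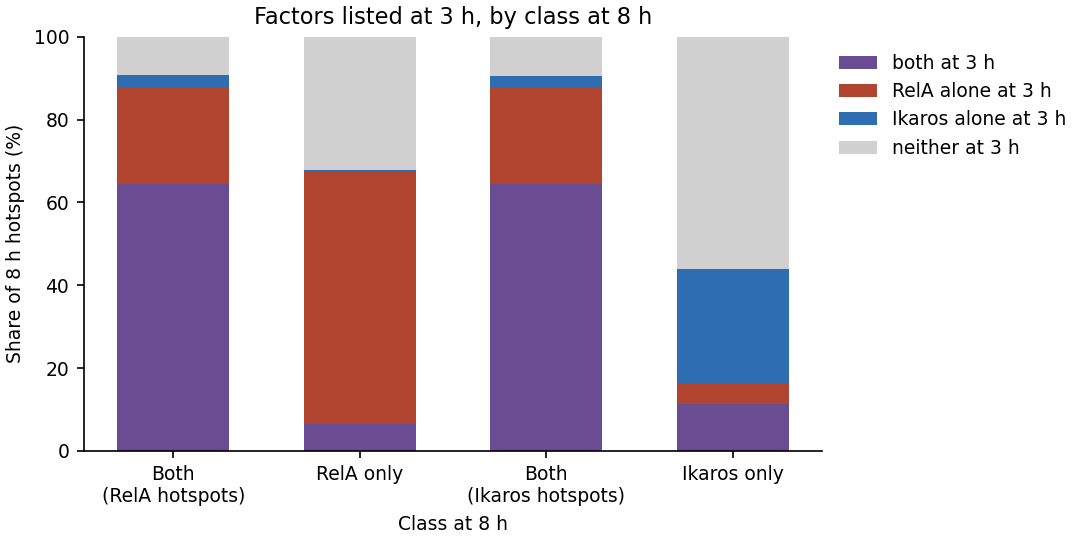
Share in percent of 8 h hotspots at which both factors, RelA alone, Ikaros alone or neither were listed at 3 h, for RelA hotspots with Ikaros and without, and for Ikaros hotspots with RelA and without. Bars add to 100%. Both factors at 3 h make up 64.5% of the RelA hotspots with Ikaros, RelA alone 60.8% of those without, and neither factor 56.1% of the Ikaros hotspots without RelA.

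The lists before LPS were short, with 47 hotspots for RelA and 853 for Ikaros, which bounds how many regions could be listed there. Ikaros at 0 h was listed at 120 of the 1511 RelA hotspots with Ikaros, 7.94% (6.63 to 9.42), and at 0 of the 367 without, where 3 counts of the total would be 0.817% and the Clopper-Pearson upper bound is 1.00%. The share over the whole RelA list was 6.39%. From the Ikaros side, Ikaros at 0 h was listed at 8.29% (6.94 to 9.80) of hotspots with RelA and 5.43% (5.04 to 5.85) of those without. Within quintiles of Ikaros z score that order was not kept. In the weakest 3 quintiles 0 of 120, 0 of 153 and 0 of 202 hotspots with RelA were listed at 0 h, with upper bounds of 3.03%, 2.38% and 1.81% that lie above the shares without RelA. In the fourth the share was 0.559% (0.0677 to 2.00) with RelA and 4.25% (3.48 to 5.13) without. In the strongest quintile the share was 18.4% (15.5 to 21.6) with RelA and 23.1% (21.3 to 25.0) without, with intervals that overlap slightly. RelA at 0 h was listed at 35 RelA hotspots with Ikaros and 1 without, 1.92% of the list.

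RelA of littermate controls at 8 h, a library that took no part in the division into classes, was also found more often at regions with Ikaros. It was listed at 732 of the 1511 wild-type RelA hotspots with Ikaros, 48.4% (45.9 to 51.0), and at 94 of the 367 without, 25.6% (21.2 to 30.4). Over the whole RelA list the share was 44.0%. It rose steeply with RelA strength, and within quintiles of RelA z score hotspots with Ikaros were higher in 5 of 5, by 6.26 to 18.3 percentage points. In the weakest quintile the shares were 14.2% (10.3 to 18.9) with Ikaros and 7.92% (3.48 to 15.0) without. In the strongest they were 93.3% (90.2 to 95.7) with Ikaros and 75.0% (47.6 to 92.7) of the 16 without. The intervals of the classes overlapped in each of the 5 quintiles.

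Among Ikaros hotspots the classes are defined by wild-type RelA itself, so the littermate contrast there sets RelA beside RelA. Littermate RelA was listed at 725 of the 1496 Ikaros hotspots with wild-type RelA, 48.5% (45.9 to 51.0), and at 93 of the 12300 without, 0.756% (0.611 to 0.925), against 5.93% of the whole Ikaros list. The littermate list held 5231 hotspots, with a median density of 4.56 and a median width of 276 bp, against a density of 25.5 and a width of 547 bp in the wild-type RelA list. Genotype label, animals and library preparation differ together between these libraries and cannot be told apart.

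**Figure D5:**
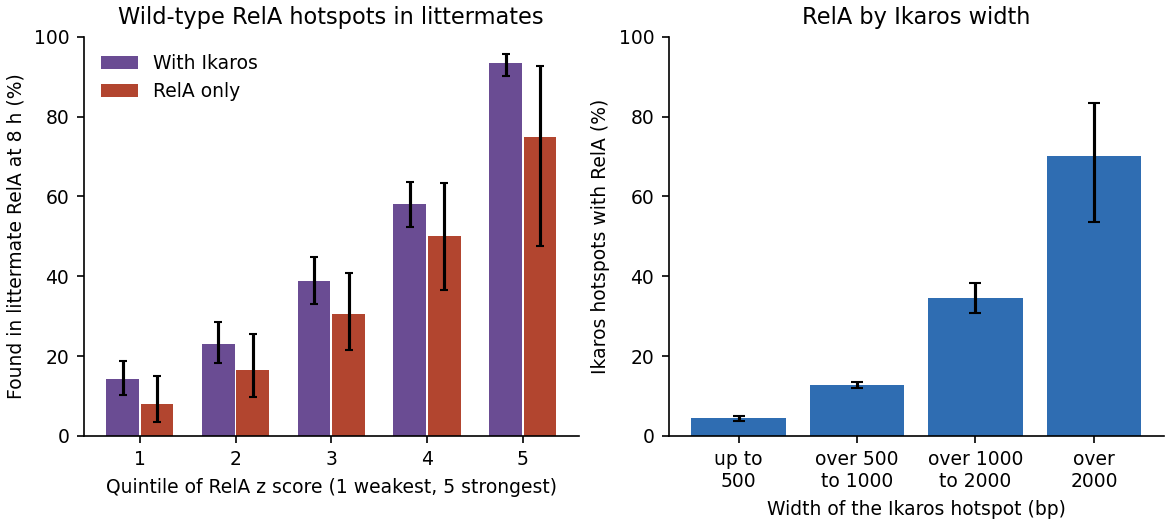
Left, share in percent of wild-type RelA hotspots at 8 h found in the littermate RelA list at 8 h, by quintile of RelA z score, for hotspots with Ikaros and RelA hotspots without it. Right, share of Ikaros hotspots with RelA by width of the Ikaros hotspot in bp. Lines are exact 95% intervals. Hotspots with Ikaros are higher in all 5 quintiles, with overlapping intervals, and the share with RelA runs from 4.38% to 70.0% with width.

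Shared regions were also closer to other hotspots. RelA hotspots with Ikaros lay a median of 48.8 kb (39.8 to 57.1) from the next RelA hotspot, and those without 120 kb (67.1 to 162). Ikaros hotspots with RelA lay a median of 4.81 kb (4.35 to 5.40) from the next Ikaros hotspot, and those without 11.2 kb (10.8 to 11.8). Of the Ikaros hotspots with RelA, 758 (50.7%) had another Ikaros hotspot within 5000 bp, and of those without 4405 (35.8%).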

How the data were processed

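Chromatin immunoprecipitation libraries of mouse macrophages were sequenced single-end with 51 bp reads, per the labels' protocols. The authors deposited 1 list of hotspots per library. The submitters' processing notes name the build mm9 and the software CASAVA. How reads were aligned, how hotspots were called and filtered, and whether starts count from 0 or 1 is not given in the sources used here, so coordinates are printed as deposited. Per the file headers, each hotspot has a highest and a mean tag density (a signal of unstated scale, deposited by the authors), a z score deposited by the authors, and the p-value the authors deposited with it, which was not used.

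Hotspots overlapping wild-type input were removed from every list. Overlaps, pairs, percentiles, Clopper-Pearson intervals and order-statistic intervals of medians were computed in Python 3.11.15 (scipy 1.17.1, pandas 2.3.3, numpy 2.4.6) and drawn with matplotlib 3.10.9. Overlap counting was tested on simulated lists. Named regions were the 8 pairs with the highest lower percentile, the 8 strongest hotspots with RelA only and with Ikaros only, and the 4 pairs with the largest lead of each factor. The members, lists and rules were chosen with earlier results of these data known. A motif search and nearest genes were planned for the case of an mm9 genome at hand, and were not run.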

Additional observations from a re-analysis of the deposited data

How the results depend on the processing

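Of 80 recomputed values of 11 results under 12 alternative settings, 45 stayed within the main 95% interval (counts: within 1.5 times), 35 moved, and 0 changed sign. The overlap shares, the count of shared regions and the centre distance cannot be negative, so a change of sign was possible only for the other results. One setting, littermate RelA of density 10 or more, was chosen after seeing the data. Shares below are of RelA hotspots with Ikaros and then of Ikaros hotspots with RelA. Under reciprocal overlap of 50% they were 61.4% and 8.36%, rho 0.37, width difference -111 bp, centre distance 51.5 bp, class differences in percentile 35.3 (RelA) and 26.0 (Ikaros), the littermate difference 28.1 points and that for Ikaros at 3 h 26.6 points. With the upper 50% of each list by z score they were 70.1% and 9.51%, with 655 shared regions, rho 0.094, width difference -136 bp, Ikaros percentile difference 24.3 and littermate difference 14.9 points. With a common floor of z score they were 75.2% and 12.1%, and the width difference -181 bp. With Ikaros held to the 1878 strongest they were 27.8% and 26.7%, with 501 shared regions, rho 0.067, width difference -325 bp, centre distance 68.0 bp, Ikaros percentile difference 11.8, littermate difference 17.2 points, Ikaros at 3 h 54.3 points and RelA at 3 h 63.7 points. This setting leaves out most of the Ikaros list. With centres within 100 bp they were 55.5% and 7.55%. By highest and by mean density rho was 0.29 and 0.32. With the whole littermate RelA list they were 15.8% and 5.93%, and 79.4% of littermate RelA hotspots of density 10 or more overlapped Ikaros. The cause of these moves was not tested where the setting does not itself set it. No paired analysis was possible because groups share no replicate number in the labels and no result comes from a test. With 1 library a group, no replicate could be left out, and unknown depth leaves the weakest detectable site unknown.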

Other observations

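The X chromosome had the lowest share of RelA hotspots with Ikaros. There 30 of 48 RelA hotspots overlapped Ikaros, 62.5% (47.4 to 76.0), against 76.3% to 84.8% on each of the 19 autosomes. The share of Ikaros hotspots with RelA on X was 11.0% (7.57 to 15.4), inside the range of 8.68% to 14.2% on the autosomes. The X chromosome was singled out after its value was seen, and with 18 unshared hotspots the value rests on few regions. Within quintiles of RelA z score the share was lower on X than on the autosomes in each of the 5, from 40.0% of 10 hotspots on X and 74.0% on the autosomes in the weakest to 85.7% of 7 and 95.9% in the strongest.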
